A study of Mus musculus with 18 samples.

Results

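Oxidative phosphorylation genes were followed in mouse bone marrow-derived macrophages. They were taken as every gene whose symbol starts with Nduf, Uqcr, Cox4 to Cox8 or Atp5 and whose counts summed to more than 100 over the libraries of a table. Of 23052 genes in each of 2 count tables, 88 carried such a symbol and 83 passed the count rule, the same 83 in both tables. By role, 44 belong with complex I, 8 with complex III, 15 with complex IV and 16 with complex V. Of the 83, 73 were counted as subunits. The other 10, called no subunit below, were 7 Ndufaf assembly genes, Atp5sl, Atp5s and Cox7a2l. The rule used only total abundance, so differences between groups were free to be tested, and all 83 passed the filter on low counts.

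All cells were C57BL6/J wild-type macrophages grown from bone marrow for 7 days, with 20% L929-conditioned medium as the source of growth factor. A stimulation set held untreated cells, cells given IL-4 for 6 h and cells given LPS for 6 h, 2 libraries each. A second set held endotoxin-tolerant macrophages in 3 media of 4 libraries each: glutamine present, glutamine absent, and glutamine absent with α-ketoglutarate (AKG) added. Every tolerant group is tolerant, so that set has no naive control. The labels give neither doses nor the schedule used to make cells tolerant. The labels name no separate animals or cultures, so p-values measure only the spread between these libraries, which may be technical, and RNA per cell cannot be told apart from cell number. The series asked how glutamine metabolism changes the transcriptome of tolerant macrophages.

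The 12 tolerant libraries held 28302158 to 37834680 counts each and the 6 stimulation libraries 34227368 to 39760356 counts. Levels below are CPM, the counts of a gene per 1000000 counts of the library size after TMM scaling, which sets libraries to a common level from the bulk of their genes. The summed level of 8 macrophage markers was 26686 to 46817 CPM in all 18 libraries, while erythroid and lymphocyte markers were near 0. Its mean was 36390 CPM untreated, 27751 CPM with IL-4 and 35994 CPM with LPS, and of the 8 markers 3 fell with IL-4, and 4 rose and 1 fell with LPS. Markers of other cells also moved with the groups. Summed stromal markers were 392 to 2065 CPM with glutamine, 48.5 to 205 CPM without it and 108 to 391 CPM with AKG, and of 7 tested 5 fell without glutamine. Neutrophil markers summed to 13 to 17.7 CPM with LPS and 2.70 to 2.98 CPM untreated, with up to 2 of 5 at 0 in a library. Dendritic cell markers summed to 0.938 to 1.03 CPM untreated, 6.52 to 7.06 CPM with IL-4 and 5.06 to 5.64 CPM with LPS. The part of these cells in any result below was not tested.

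Oxidative phosphorylation makes most of a resting cell's ATP. Complex I takes electrons from NADH, complex III passes them from ubiquinol to cytochrome c, complex IV hands them to oxygen, and the proton gradient they build drives complex V, the ATP synthase. Macrophages activated with LPS are known to turn towards glycolysis and those activated with IL-4 to rely on respiration. The subunits come from the nuclear and the mitochondrial genome. The genes encoded by mitochondrial DNA, which include the catalytic core of complex IV, are not analysed here, so every statement concerns nuclear genes.

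In untreated macrophages the highest levels per kilobase of principal transcript were those of Cox4i1, the main subunit 4 of complex IV, at 251 ± 22.7 CPM per kb (SD, n = 2), and Atp5b, the catalytic beta subunit of the ATP synthase, at 226 ± 18.4 CPM per kb. These first members did not differ beyond their spread. Atp5a1, the alpha subunit, followed at 173 ± 15 CPM per kb, below Atp5b by more than the spread. Next came Cox6b1 (148 ± 14.4), Uqcrh (147 ± 2.27) and Cox6a1 (131 ± 20.1), whose values overlapped. By complex, the median subunit stood at 32.9 CPM per kb for complex I, 67.2 for III, 62.2 for IV and 67.9 for V. With LPS the medians were 34.2, 81.0, 88.0 and 102 CPM per kb. Complex I had the lowest median in both groups.

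Tissue-specific isoforms were scarce. Cox4i2, the hypoxia and lung form of subunit 4, had 36 counts over the 12 tolerant libraries and 21 over the 6 stimulation libraries, which put it below the count rule. Ndufa4l2 had 32 and 11, and Cox7b2, Cox8b and Cox8c, forms of heart, muscle or testis, had 0. Just inside the rule were Cox6b2, a testis form, with 124 and 111 counts, and Cox7a1, a heart and muscle form, with 229 and 277. Atp5l, subunit g of the ATP synthase, was also near the edge with 330 and 176 counts, and 84.9% of its 50-base sequences also occur in other genes, 12 of them pseudogenes. Cox6a2, the heart and muscle form of subunit 6a, had 912 and 211.

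Promoters are shown for members whose response to LPS is described below, since genes of one subunit can carry different upstream sequence. They are a selection, and the matches in them do not stand for all members that rose or fell. The sequences are the 100 bases before the RefSeq start site (GRCm38.p6), 5′ to 3′ on the gene's strand, and capitals mark a match to one of 4 motifs searched on both strands: GCGCATGCG for NRF1, CCGGAAG for ETS factors such as GABPA, AAGATGGCG for YY1 and TCAAGGTCA for ERR. The first 3 are the genes for subunit c, which forms the rotor ring of the ATP synthase, at chr11:96075632-96075731, chr15:102671048-102671147 and chr2:73911327-73911426, all on the minus strand.
Atp5g1: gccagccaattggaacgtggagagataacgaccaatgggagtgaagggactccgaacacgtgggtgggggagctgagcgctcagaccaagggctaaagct
Atp5g2: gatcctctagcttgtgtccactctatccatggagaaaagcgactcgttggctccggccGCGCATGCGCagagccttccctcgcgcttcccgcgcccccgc
Atp5g3: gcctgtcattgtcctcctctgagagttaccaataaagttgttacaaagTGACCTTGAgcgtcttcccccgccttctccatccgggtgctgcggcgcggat
The 3 encode the same mature protein, but their upstream sequences differ: Atp5g2 carries an NRF1 match, Atp5g3 the only ERR match among the 71 members with a promoter entry, and Atp5g1 neither in this stretch.

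The next 4 belong to subunits that rose with LPS: Atp5k, subunit e of complex V (chr5:108434400-108434499, minus strand), Ndufa11, a membrane-arm subunit of complex I (chr17:56717662-56717761, plus strand), and the complex IV subunits Cox6a1 (chr5:115348959-115349058) and Cox6b1 (chr7:30626115-30626214), both on the minus strand.
Atp5k: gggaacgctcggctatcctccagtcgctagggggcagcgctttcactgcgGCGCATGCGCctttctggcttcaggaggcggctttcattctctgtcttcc
Ndufa11: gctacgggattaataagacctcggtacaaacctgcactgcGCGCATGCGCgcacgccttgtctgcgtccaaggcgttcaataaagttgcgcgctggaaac
Cox6a1: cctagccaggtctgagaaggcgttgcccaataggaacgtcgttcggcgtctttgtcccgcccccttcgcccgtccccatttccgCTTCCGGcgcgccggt
Cox6b1: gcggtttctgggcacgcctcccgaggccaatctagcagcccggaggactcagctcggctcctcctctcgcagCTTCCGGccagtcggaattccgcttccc
Atp5k and Ndufa11 share the palindrome GCGCATGCGC, which reads as an NRF1 match on each strand, and the complex IV pair share an ETS match close to the start.

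The last 3 belong to genes that fell with LPS and are no subunits: Cox7a2l (chr17:83514334-83514433, minus strand), Ndufaf7 (chr17:78937035-78937134, plus strand) and Atp5sl (chr7:25619314-25619413, plus strand).
Cox7a2l: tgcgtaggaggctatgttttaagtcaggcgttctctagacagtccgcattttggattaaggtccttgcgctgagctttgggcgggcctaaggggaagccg
Ndufaf7: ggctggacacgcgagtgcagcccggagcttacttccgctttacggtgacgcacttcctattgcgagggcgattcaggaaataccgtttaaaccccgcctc
Atp5sl: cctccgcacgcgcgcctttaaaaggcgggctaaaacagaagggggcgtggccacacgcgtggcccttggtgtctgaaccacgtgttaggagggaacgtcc
None of the 4 motifs occurs in these stretches, which says only that these letters are absent from them.

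Over windows from 250 bases before to 50 after the start, 71 of the 83 members had an entry, with 77 start sites. The NRF1 motif occurred in 13% of these windows and in 1.75% of all 32851 promoter windows. The YY1 motif occurred in 11.7% against 1.4%, the ETS motif in 19.5% against 8.86% and the ERR motif in 1.3% against 0.42%. YY1 matches lay in 8 genes, 6 of them counted with complex I and 2 with complex V. Atp5sl, which is no subunit, was counted at both of its start sites, at 27 and -53 bases from them. Among the 22 members with a window that were called with LPS, 3 held NRF1, 5 ETS, 3 YY1 and 1 ERR, and among the 49 not called these were 7, 10, 5 and 0. These matches are descriptions of sequence and were not tested for binding.

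LPS for 6 h called the most members of the 6 comparisons. On TMM library sizes many subunits of complexes IV and V rose, few of complex I did, and 4 genes that are no subunit fell, Ndufaf7 among them by 3.22 on the log2 scale. A gene was called at an adjusted p under 0.05 in edgeR's quasi-likelihood test, adjusted over all genes tested. Of the 83 members 20 rose and 6 fell, where 22.8% of all genes rose and 29.3% fell. The share of members that rose was close to that of all genes and the share that fell was below it. The median log2 fold change was 0.20 for the members and -0.10 for all genes. By complex, 9 of 15 members of complex IV rose, 6 of 16 of complex V, 1 of 8 of complex III and 4 of 44 of complex I, and the medians were 0.43, 0.28, 0.21 and 0.05.

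**Figure D1:**
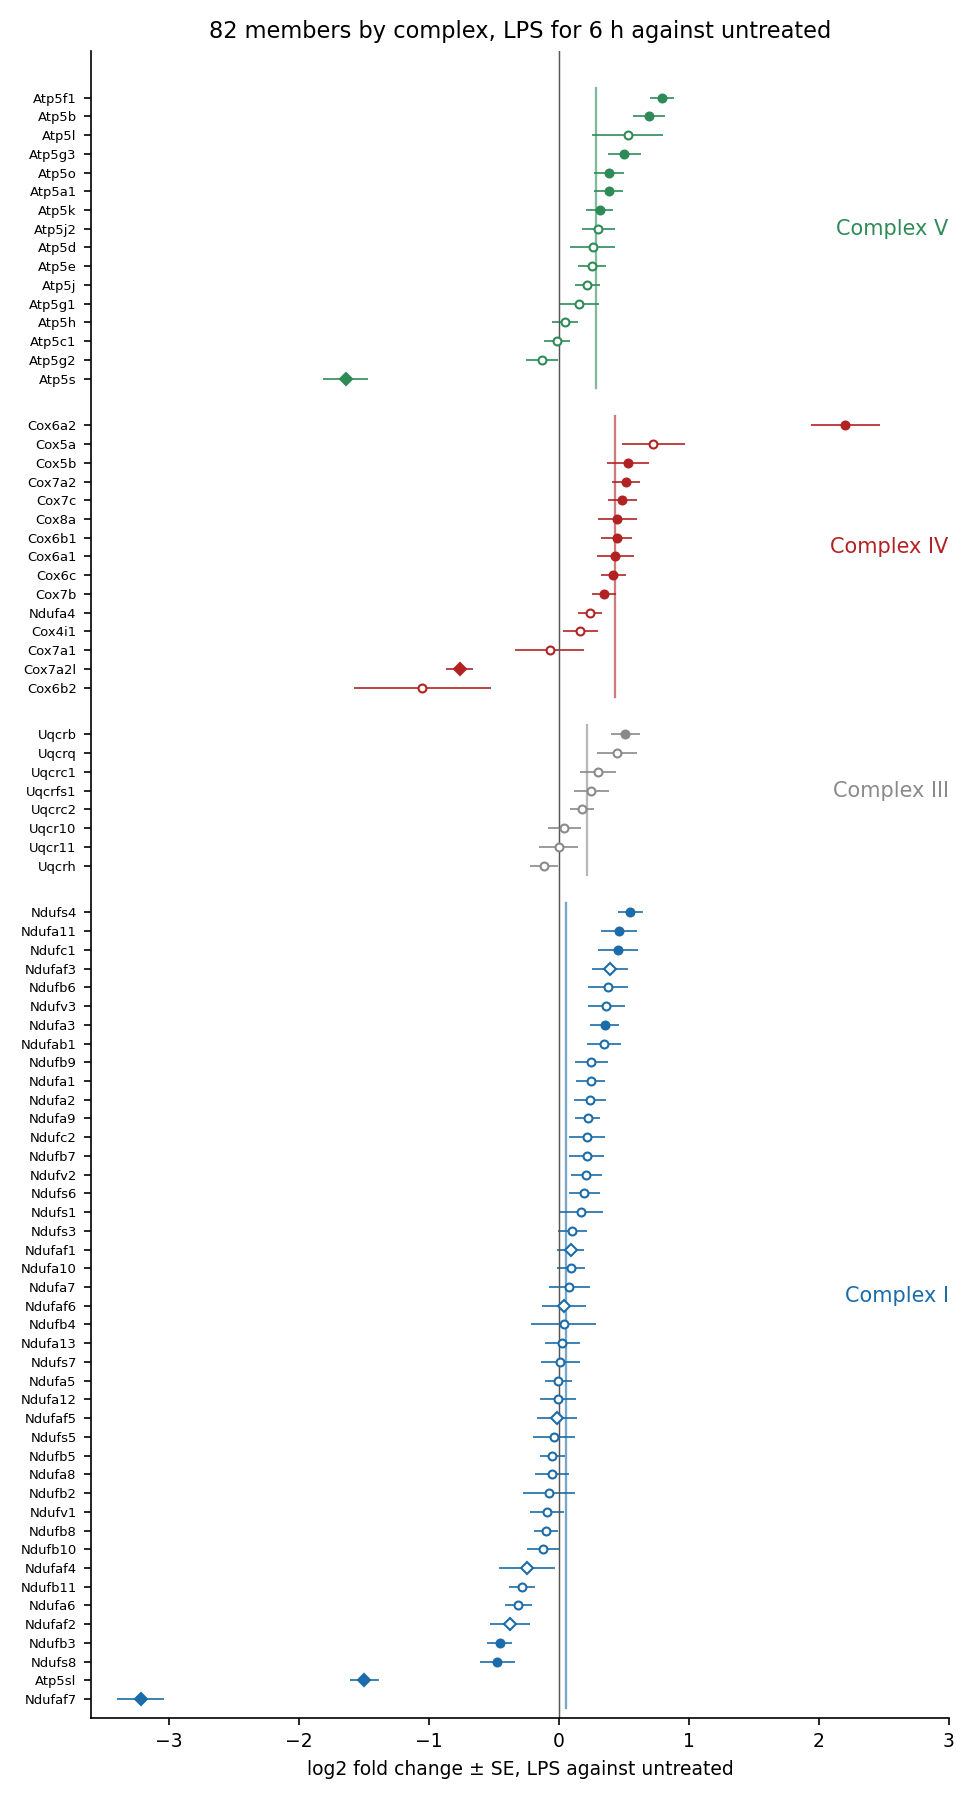
Log2 fold change of 82 of the 83 members with LPS for 6 h against untreated (2 libraries each), on TMM library sizes, with bars of 1 SE. Filled symbols are called, diamonds are members that are no subunit, and vertical coloured lines are the medians of each complex over all its members (0.43 for IV, 0.28 for V, 0.21 for III, 0.05 for I). On library totals alone 45 of the 83 signs differ.

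These counts depended on single libraries. Without the first LPS library 8 members were called (0 of 11 common complex IV subunits), without the second LPS library 14, and without the first untreated library 44. The first library stood above the second in 68 of 83 members untreated, in 72 with LPS and in 17 with IL-4. The medians kept their order between complexes IV and I in each of these fits, at 0.35 against 0.01 without the first LPS library and 0.64 against 0.24 without the first untreated library. The fall of the 4 called members that are no subunit was called in all of them. With LPS 7 of 10 cell cycle genes fell, and their part in these results was not tested.

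In complex IV, 8 of 11 common nuclear subunits rose. Cox7a2 was at 42.1 and 37.9 CPM untreated and 60.4 and 53.9 CPM with LPS, a log2 change of 0.52 (SE 0.109, adjusted p = 0.0092). Cox5b, a subunit facing the matrix, stood at 53.6 and 40.7 CPM untreated and 73.1 and 63.2 CPM with LPS (log2 0.53, SE 0.159, adjusted p = 0.0335). The groups did not overlap for either gene. Cox6a1 rose by 0.43, Cox6b1 by 0.44, Cox6c by 0.42, Cox7b by 0.35, Cox7c by 0.49 and Cox8a by 0.45. The other 3 did not pass the test, and Cox5a had the larger estimate but wider libraries, at 36.0 and 21.5 CPM untreated and 49.8 and 45.3 CPM with LPS (log2 0.73, adjusted p = 0.053). Cox4i1 was at 0.17 (adjusted p = 0.358) and Ndufa4, first taken for a complex I subunit and now placed in complex IV, at 0.24 (adjusted p = 0.0727).

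Isoform genes of complex IV had unlike values. Cox6a2 rose from 0.456 and 0.305 CPM untreated to 1.77 and 1.75 CPM with LPS, a 4.60-fold change (log2 2.20, SE 0.265, adjusted p = 0.00102). Its libraries held 13 to 51 counts each in the stimulation set, and the gene (chr7:128205435-128206387, minus strand) overlaps an exon of Itgad on the other strand, which itself had 2 to 9 counts. Cox6a2 made up 0.502% ± 0.065 (SD, n = 2) of the counts of the Cox6a1 and Cox6a2 pair untreated, 1.09% ± 0.070 with IL-4 and 1.72% ± 0.156 with LPS. Even after the rise, Cox6a1 supplied nearly all subunit 6a transcripts. Cox7a1 (log2 -0.07, adjusted p = 0.839) and Cox6b2 (log2 -1.05, adjusted p = 0.146) were not called.

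Cox7a2l, a factor that joins complexes III and IV into supercomplexes and of which mice of the C57BL/6 background carry a shortened form, fell. It was at 130 and 113 CPM untreated and at 72.2 and 70.9 CPM with LPS (log2 -0.77, SE 0.107, adjusted p = 0.00185), while its relative Cox7a2 rose. Cox7a2l held 75.3% ± 0.42 of the counts of the pair untreated and 55.6% ± 1.66 with LPS (SD, n = 2), a shift that does not depend on library scaling. Of its 50-base sequences 19.8% occur elsewhere, including 1 pseudogene. The gene lies at chr17:83501918-83517330 on the minus strand.

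In complex V, 3 of 8 core members and 3 of 7 members of the stalk and membrane part rose. Atp5f1, subunit b of the peripheral stalk, was at 105 and 112 CPM untreated and 193 and 185 CPM with LPS (log2 0.80, SE 0.092, adjusted p = 0.000891), the largest rise after Cox6a2. Atp5b went from 458 and 408 CPM to 756 and 642 CPM (log2 0.69, SE 0.124, adjusted p = 0.00493). Its partner Atp5a1 changed less, from 453 and 401 CPM to 587 and 527 CPM (log2 0.38, adjusted p = 0.0298). Atp5o, the stalk subunit OSCP, rose by 0.39 and Atp5k by 0.31. The gamma subunit Atp5c1, which turns inside the ring of alpha and beta subunits, was not called, with 120 and 120 CPM untreated and 126 and 113 CPM with LPS (log2 -0.01, adjusted p = 0.923). Atp5f1 shares 38.7% of its 50-base sequences with other genes and Atp5b 0.86%.

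The 3 genes for subunit c, whose promoters are printed above, had different values. Atp5g3 rose from 84.1 and 73.9 CPM to 122 and 102 CPM (log2 0.50, SE 0.128, adjusted p = 0.0185). Atp5g1 was at 29.4 and 23.7 CPM untreated and 32.3 and 26.8 CPM with LPS (log2 0.16, adjusted p = 0.424), and Atp5g2 at 23.6 and 19.9 CPM and 21.0 and 18.7 CPM (log2 -0.13, adjusted p = 0.421), with overlapping groups for both. Atp5g3 made up 62.1% ± 1.11 of the 3 genes' counts untreated, 65.5% ± 0.77 with IL-4 and 69.4% ± 0.29 with LPS. The share of Atp5g2 was 17.1% ± 0.19, 14.9% ± 0.35 and 12.3% ± 0.49. All 50-base sequences of Atp5g2 and 66% of those of Atp5g1 recur elsewhere in the transcriptome, so their counts are uncertain, whereas those of Atp5g3 are its own. Differences between the 3 responses were not tested.

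Complex I had calls in both directions. Of its 29 accessory subunits 4 rose and 1 fell, and of its 7 core subunits only Ndufs8 was called, as a fall. Ndufs4, an accessory subunit of the NADH-oxidising arm, went from 21.9 and 23.3 CPM to 33.8 and 32.3 CPM (log2 0.55, SE 0.098, adjusted p = 0.00482). Ndufa11, Ndufc1 and Ndufa3 rose by 0.46, 0.45 and 0.35. Ndufs8, which carries iron-sulfur clusters in the core, went the other way, from 36.8 and 30.5 CPM to 26.1 and 22.3 CPM (log2 -0.47, SE 0.136, adjusted p = 0.0288), and Ndufb3 from 16.6 and 17.5 CPM to 12.6 and 12.3 CPM (log2 -0.46, SE 0.097, adjusted p = 0.00968). The other core genes gave small values, among them Ndufs1 at 0.17 and Ndufv1 at -0.09. In complex III only Uqcrb rose, from 33.2 and 39.7 CPM to 51.7 and 52.2 CPM (log2 0.51, SE 0.115, adjusted p = 0.0118), with 43% of its 50-base sequences shared, while Uqcrc1 was at 0.30 and the Rieske protein gene Uqcrfs1 at 0.25, neither called.

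The 3 steepest falls were in genes that are no subunit. Ndufaf7, an arginine methyltransferase needed for the assembly of complex I, was at 11 and 10.5 CPM untreated and 0.974 and 1.33 CPM with LPS (log2 -3.22, SE 0.180, adjusted p = 7.56e-05). Atp5sl, also known as Dmac2 and needed for building the complex I membrane arm, went from 26.7 and 25.8 CPM to 8.84 and 9.78 CPM (log2 -1.50, SE 0.111, adjusted p = 0.000169). Atp5s, coupling factor B, went from 3.98 and 4.08 CPM to 1.18 and 1.40 CPM (log2 -1.64, SE 0.175, adjusted p = 0.000644). Untreated and LPS libraries were far apart for all 3. Ndufaf7 made up 20.0% ± 0.29 of the counts of the 7 Ndufaf genes untreated and 2.53% ± 0.52 with LPS (SD, n = 2), while none of the other 6 was called, from Ndufaf2 at -0.38 to Ndufaf3 at 0.39. Together the 10 members that are no subunit went from 5.02% ± 0.06 to 2.59% ± 0.21 of all member counts. Ndufaf7 shares 4.41% of its 50-base sequences with other genes and the other pair 0%. Ndufaf7 lies at chr17:78937136-78948052 and Atp5sl at chr7:25619414-25625551, both on the plus strand, as is Atp5s at chr12:69724950-69744660.

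**Figure D2:**
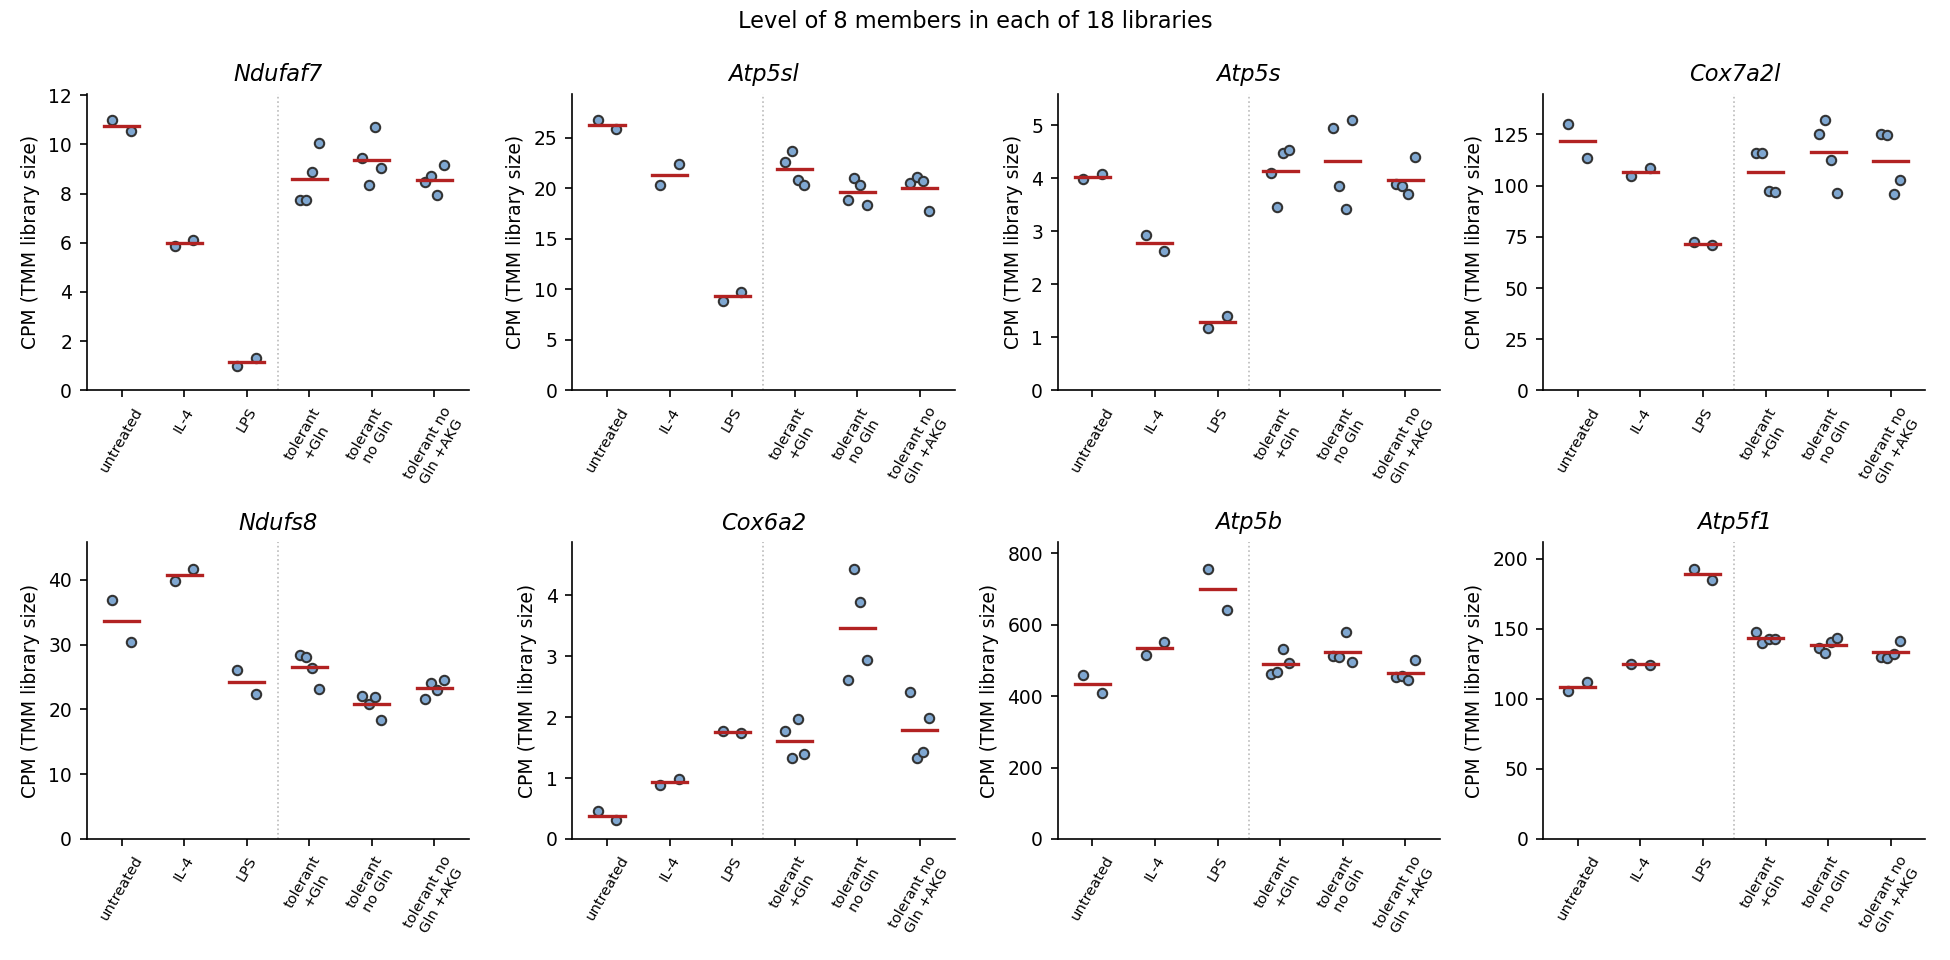
CPM on TMM library sizes of 8 members in each of the 18 libraries, one point per library, with the group mean as a red bar and a dotted line between the 2 tables, which were scaled separately. With LPS, Ndufaf7, Atp5sl, Atp5s, Cox7a2l and Ndufs8 lie below both untreated libraries and Cox6a2, Atp5b and Atp5f1 above them. Without glutamine Cox6a2 lies above, and Ndufs8 below, all 4 libraries with glutamine.

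The make-up of the subunit counts gives a contrast in the same direction without any scaling between libraries, with each gene weighted by its counts. Complex I genes made up 29.3% ± 0.11 of the counts of all 73 subunit genes untreated, 28.4% ± 0.002 with IL-4 and 25.2% ± 0.53 with LPS. Complex V went from 40.7% ± 0.25 untreated to 41.8% ± 0.04 with IL-4 and 44.8% ± 0.35 with LPS (SD, n = 2). Complex IV was at 18.3% ± 0.55, 18% ± 0.001 and 19.2% ± 0.11, and complex III at 11.7% ± 0.19, 11.8% ± 0.04 and 10.9% ± 0.07. Counts of complex IV relative to complex I were 0.623 ± 0.021 untreated, 0.634 ± 0.0001 with IL-4 and 0.761 ± 0.020 with LPS. In each of these the LPS libraries lay outside the untreated ones. In complex V, Atp5b held 19092 and 17401 counts untreated and 21731 and 18391 with LPS, and Atp5f1 4392 and 4776 against 5533 and 5296. Atp5a1 held 18882 and 17078 against 16861 and 15092, and Atp5c1 5007 and 5124 against 3607 and 3222. All subunit genes together made up 0.430% of all counts untreated and 0.388% with LPS, so a lower count need not mean a lower share. Much of the higher complex V share lay in Atp5b and Atp5f1 and not in all its genes. A larger share of one complex also lowers the shares of the others. With 2 libraries a group no test of these shares was made. Tolerant macrophages gave 29.1, 28.6 and 29.5% for complex I with glutamine, without it and with AKG, and 41.1, 41.5 and 40.7% for complex V.

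**Figure D3:**
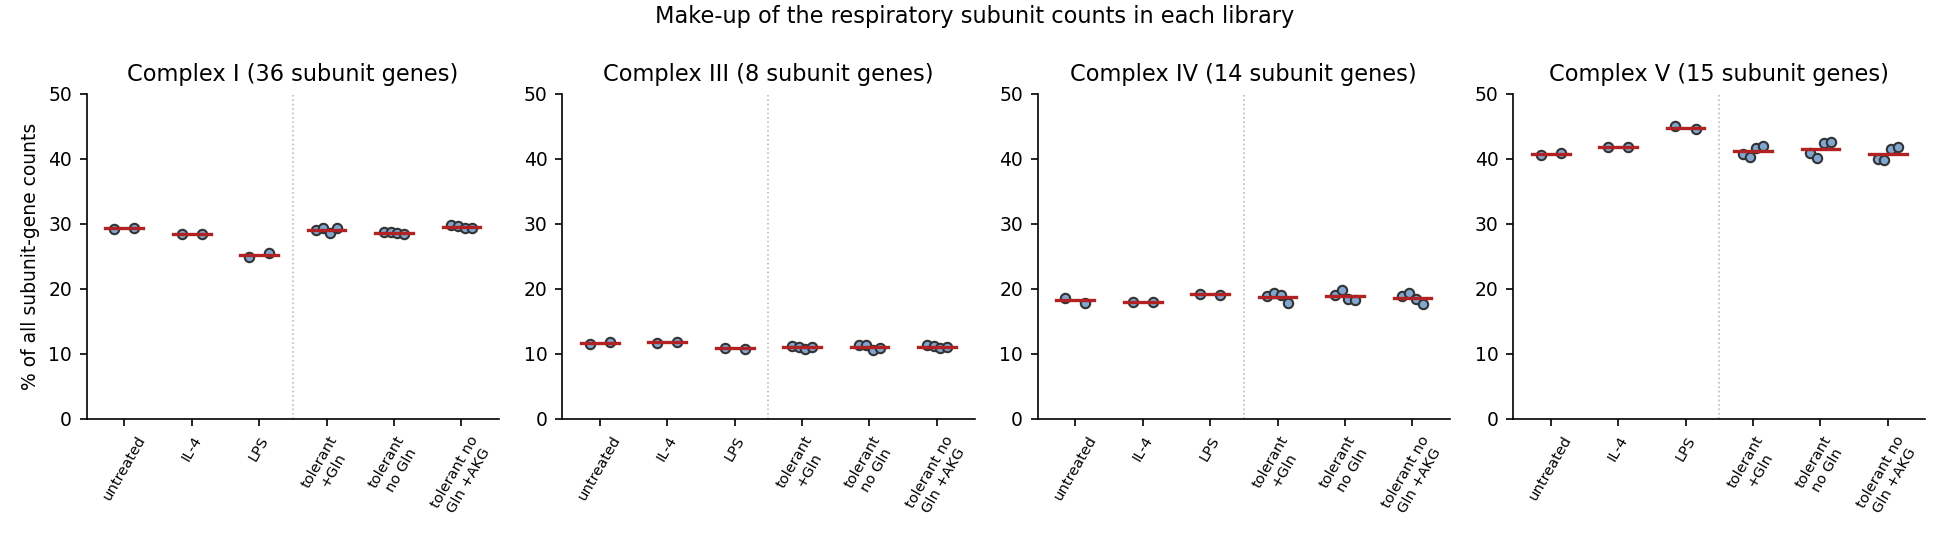
Percent of the counts of all 73 subunit genes that falls to each complex, one point per library, with group means as red bars and a dotted line between the 2 tables. LPS libraries sit lowest for complex I (25.2% on average, against 29.3% untreated) and highest for complex V (44.8% against 40.7%). Genes are weighted by their counts, and much of the complex V difference lies in Atp5b and Atp5f1.

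Whether respiratory genes as a whole rose or fell with LPS depended on the scaling. As a share of all counts the 83 members made up 0.453% ± 0.041 untreated, 0.509% ± 0.013 with IL-4 and 0.399% ± 0.021 with LPS (SD, n = 2). On TMM library sizes the same shares were 0.410, 0.453 and 0.495%, so the order of LPS and untreated reversed. The mean TMM factor was 1.1 in untreated libraries and 0.806 after LPS. On library totals alone, 2 members rose with LPS (Atp5f1 and Cox6a2) and 33 fell, where 12.9% of all genes rose and 51.2% fell, and the median of all genes moved from -0.10 to -0.55. With RLE size factors, which centre all genes near 0, 25 rose and 5 fell, where 25.6% of all genes were called in each direction. Ndufaf7, Atp5sl, Atp5s and Cox7a2l fell, and Cox6a2 and Atp5f1 rose, in every alternative tried, including library totals. In every scaling the complex IV median stayed above the complex I median, at -0.02 against -0.40 on library totals.

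**Figure D4:**
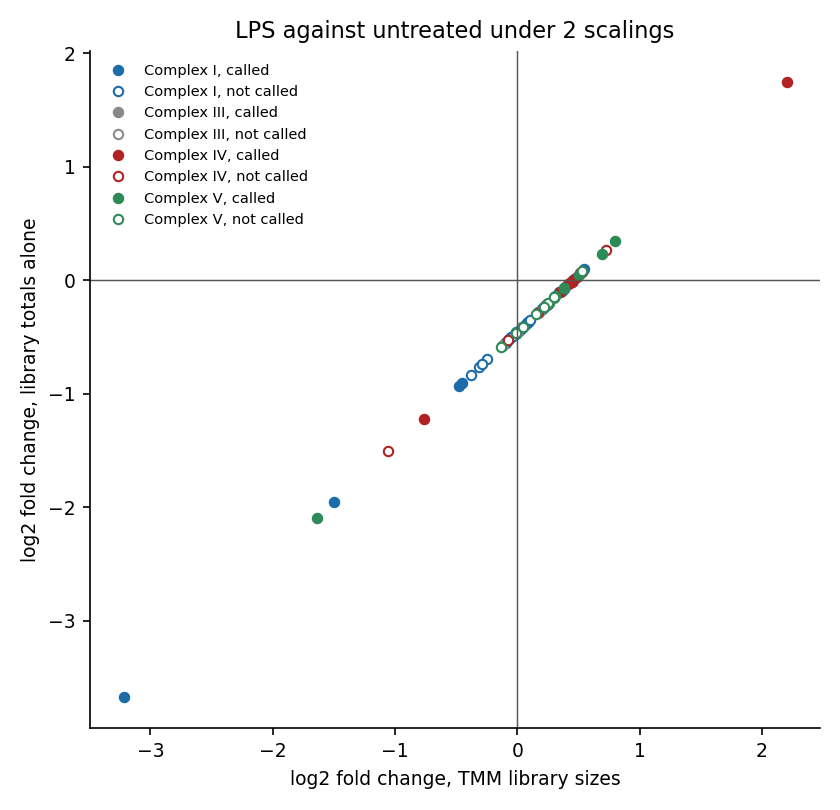
Log2 fold change of the 83 members with LPS against untreated, on TMM library sizes (x) and on library totals alone (y), coloured by complex, filled where called on TMM sizes. All points shift down together on library totals, and the order of the members is nearly kept: Ndufaf7 is lowest and Cox6a2 highest on both axes.

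Other genes of respiration were taken from a list for each pathway, and their counts with LPS stand beside the same 22.8% of all genes that rose and 29.3% that fell on TMM sizes. Of the 8 genes of complex II, which feeds electrons from succinate to the chain, 3 were called with LPS, and all 3 were assembly factors that fell (Sdhaf4 -0.79, Sdhaf3 -0.77, Sdhaf1 -0.75), and Sdha, Sdhb, Sdhc and Sdhd were not called. Cycs, cytochrome c, went from 12.9 to 37.2 CPM (log2 1.53, SE 0.13, adjusted p = 0.000289), and Usmg5, a small ATP synthase protein, rose by 0.72. These were 2 of 5 genes listed for cytochrome c and other proteins outside the prefixes. Of 10 other assembly genes of complexes I and V, 4 fell and no other was called (Nubpl -0.90, Atpaf1 -0.65, Tmem186 -0.46), and of 23 for complexes III and IV 4 rose and 4 fell (Coa5 1.13, Cox18 0.96, Uqcc3 -0.74). Of 13 transcriptional regulators 5 rose and 2 fell, with Esrra at 1.14, Nrf1 at 0.70 and Pprc1 at 0.66. Of 14 tricarboxylic acid cycle genes 3 rose and 5 fell, with Idh2, which makes α-ketoglutarate in the mitochondrion, at -1.37, Idh3g at -0.70 and Suclg2 at -0.60. Among 6 inhibitors and carriers 2 rose and 1 fell: Acod1, whose product itaconate inhibits complex II, went from 19.3 to 6915 CPM, Nos2, whose product nitric oxide inhibits complex IV, rose with it, and the uncoupling protein gene Ucp2 fell by 1.41. These counts depended on the scaling, and on library totals 12.9% of all genes rose and 51.2% fell. On library totals all 8 genes of complex II fell, Sdha to Sdhd among them, as did 9 of the 10 assembly genes of complexes I and V and 9 of the 23 of complexes III and IV, where 2 rose. Of the regulators 1 rose and 6 fell on totals, and of the tricarboxylic acid cycle genes 7 fell and no other was called. Esrra (0.68), Cycs (1.08), Coa5 (0.68) and Cox18 (0.51) were still called higher there, while Nrf1 (0.24, adjusted p = 0.088) and Pprc1 (0.21, adjusted p = 0.157) were not called.

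IL-4 for 6 h changed few members. Of 83, 1 rose and 1 fell, where 9.66% of all genes rose and 10.5% fell. Cox6a2 stood at 0.882 and 0.986 CPM against 0.456 and 0.305 CPM untreated (log2 1.29, SE 0.27, adjusted p = 0.0228), and Ndufaf7 at 5.86 and 6.10 CPM against 11 and 10.5 CPM (log2 -0.84, SE 0.154, adjusted p = 0.0142). With the replicate number as a block Ndufaf7 was still called and Cox6a2 was not. Neither call held without one or other of the 2 IL-4 libraries, when 0 members were called, and without the first untreated library 8 were. The member median was 0.12 and that of all genes -0.04, and 67 of the 83 estimates were positive, among them Cox5a at 0.82 (adjusted p = 0.0733) and Ndufs1 at 0.41 (adjusted p = 0.16). By complex the medians were 0.11 for I, 0.15 for III, 0.14 for IV and 0.11 for V. Without the first untreated library they were 0.25, 0.31, 0.30 and 0.31, and without the second 0.04, 0.10, 0.05 and 0.12.

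Other respiratory genes had few calls with IL-4, beside the 9.66% of all genes that rose and 10.5% that fell. Ppargc1b, a coactivator of mitochondrial gene expression, went from 1.41 to 18.5 CPM (log2 3.71, SE 0.17, adjusted p = 0.000172), and Pprc1 rose by 0.61, which made 2 of 13 regulators. In the tricarboxylic acid cycle Suclg1 rose by 0.42 and Idh3a by 0.37, 2 of 14 genes, neither of them called with the replicate number as a block (adjusted p = 0.0653 and 0.0759). Acod1 fell by 1.13. No gene was called among 8 of complex II, 5 for cytochrome c and other proteins outside the prefixes, and 33 assembly genes. Their smallest adjusted p were 0.273 for Sdhaf4, 0.103 for Atpif1 and 0.0756 for Coa7.

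Set directly against LPS, IL-4 gave 7 members higher and 10 lower, where 29.7% of all genes were higher and 23.4% lower. This comparison shares its libraries with those against untreated cells. Higher with IL-4 were Ndufaf7 (log2 2.37), Atp5sl (1.2), Atp5s (1.1), Ndufs8 (0.75), Cox7a2l (0.58), Ndufb3 (0.42) and Ndufb10 (0.39). Lower were Cox6a2 (-0.91), Atp5f1 (-0.60), Ndufa11 (-0.47), Ndufs4 (-0.42), Ndufaf3 (-0.42), Uqcrb (-0.39), Cox6b1 (-0.39), Atp5b (-0.39), Cox7a2 (-0.38) and Cox6c (-0.31). Ndufs8 was at 39.9 and 41.7 CPM with IL-4 and 26.1 and 22.3 CPM with LPS (SE 0.14, adjusted p = 0.00504), and the untreated libraries lay between. On library totals 50 members were called, all higher, where 52.5% of all genes were higher and 13.5% lower, and the median of all genes moved from 0.10 to 0.58. With the replicate number as a block 12 of the 17 calls held. Most calls were lost when a library was left out. The calls of members lower with IL-4 in complexes I, III and IV were lost in each of those fits. The complex IV median there lay between -0.34 and -0.15.

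In endotoxin-tolerant macrophages the absence of glutamine changed few members. Of 83 members 1 rose and 1 fell without glutamine, where 2.3% of all genes rose and 2.4% fell. The member median was -0.05 and that of all genes -0.01. The members made up 0.464% ± 0.020 of all counts with glutamine, 0.457% ± 0.020 without it and 0.432% ± 0.012 with AKG (SD, n = 4). On TMM library sizes these shares were 0.461% ± 0.016, 0.453% ± 0.024 and 0.439% ± 0.020. Replicates 1 and 2 stood apart from replicates 3 and 4 in every tolerant group, a difference the labels do not explain, so values within each of these pairs of replicates are given. In a fit blocked on replicate number, which takes that difference out, 8.68% of all genes rose and 13% fell, and of the members 1 rose and 2 fell.

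Cox6a2 was the member that rose without glutamine. It was at 1.34 to 1.96 CPM in the 4 libraries with glutamine and 2.61 to 4.43 CPM in the 4 without, with no overlap (log2 1.1, SE 0.249, adjusted p = 0.0301). Within replicates 1 and 2 the log2 change was 1.19 and within 3 and 4 it was 1.05. The AKG libraries were at 1.33 to 2.41 CPM, below those without glutamine (log2 -0.96, SE 0.25), but the adjusted p was 0.0893, and 0.0315 with the replicate block. Against glutamine, AKG libraries overlapped in Cox6a2 (log2 0.14). As a share of the Cox6a1 and Cox6a2 pair it made up 1.76% ± 0.27 with glutamine, 3.79% ± 0.76 without and 2.11% ± 0.62 with AKG (SD, n = 4), so Cox6a1 remained the main form. Counts of Cox6a2 were 44 to 148 per tolerant library and those of the overlapping Itgad 1 to 7.

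Ndufs8 fell without glutamine, from 23.1 to 28.4 CPM over 4 libraries to 18.4 to 22.0 CPM (log2 -0.35, SE 0.086, adjusted p = 0.0432), at -0.40 and -0.27 within the 2 pairs of replicates. AKG libraries were at 21.7 to 24.5 CPM and overlapped both other groups. Cox7b, a small complex IV subunit, was at 62.8 to 72.8 CPM with glutamine and 56.2 to 62.3 CPM without (log2 -0.20, adjusted p = 0.115), and was called with the block (adjusted p = 0.0495). With 1 library left out at a time, Cox6a2 lay between 0.96 and 1.23 and was called in 3 of 8 fits, and Ndufs8 lay between -0.40 and -0.28 and was called in 1 of 8. Stromal markers, which fell without glutamine, and 6 of 10 cell cycle genes, which also fell, moved with this comparison, and their part was not tested.

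AKG called no member in either comparison. Against tolerant cells without glutamine, 0 of 83 were called, where 0.64% of all genes rose and 0.849% fell, 3 members had an unadjusted p under 0.05, DESeq2 called 1 (Cox6a2, lower) and limma-voom 0. With the block 8.32% of all genes rose, 7.03% fell and 1 member, again Cox6a2, fell. The smallest p after Cox6a2 were those of Atp5b (log2 -0.18, adjusted p = 0.366), Cox7a2 (-0.19), Ndufc1 (-0.24) and Ndufb2 (-0.20). Against tolerant cells with glutamine, 0 members were called, where 0% of all genes rose and 0% fell, though 4 members and 916 genes had an unadjusted p under 0.05. DESeq2 called 75 genes higher and 157 lower and limma-voom 0, with 0 members in either. With the block 1.63% of all genes rose and 5.38% fell, with 0 members among them. The leading members were Atp5g1 (log2 -0.21, adjusted p = 0.530), Ndufa4 (-0.18), Cox6c (-0.18), Cox7b (-0.15) and Ndufb5 (-0.15). Only 14 of 83 estimates were positive and the median was -0.06, against -0.002 for all genes.

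**Figure D5:**
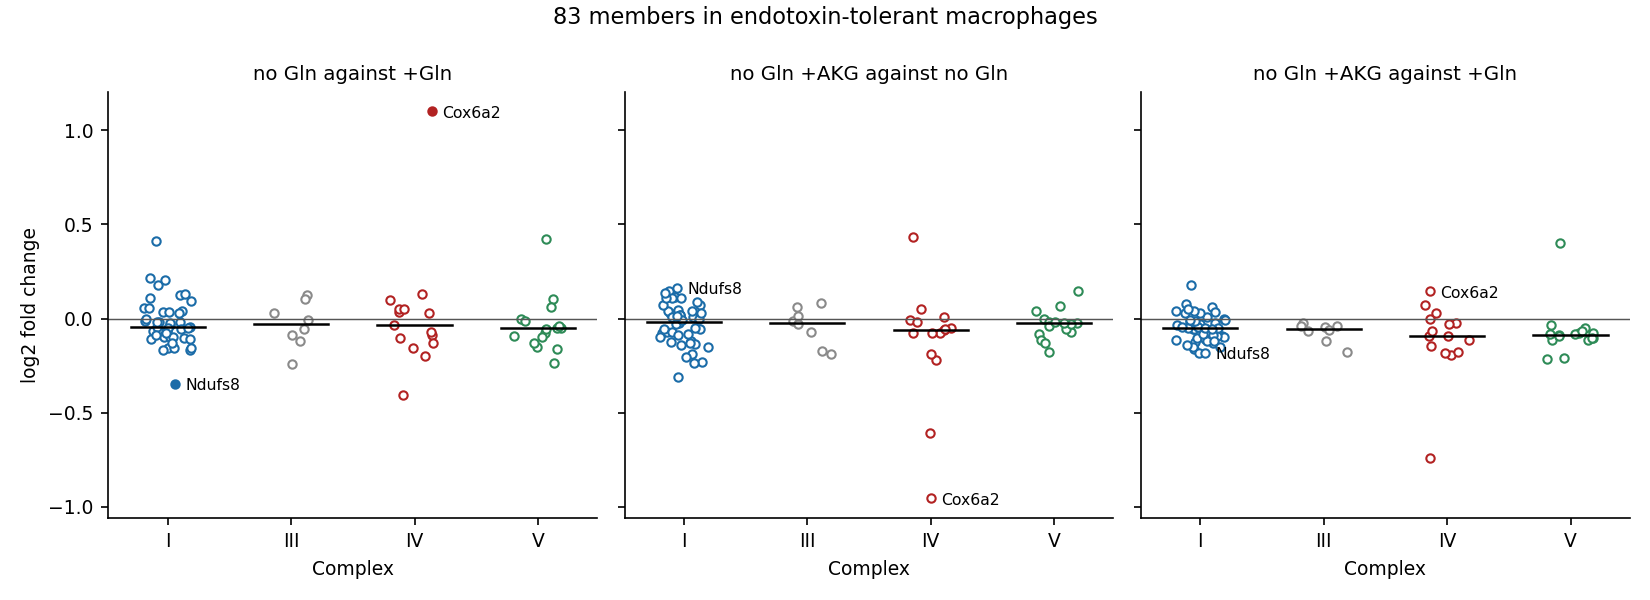
Log2 fold change of the 83 members in the 3 tolerant comparisons (4 libraries a group), by complex, with medians as bars and called members filled. Cox6a2 (1.1) and Ndufs8 (-0.35) are the called members, both without glutamine against with it, and complex medians lie between -0.09 and -0.02. The comparisons share libraries.

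In the tolerant set the pathway lists, with 5 to 23 tested genes each, gave 3 calls. All 3 were without glutamine against with it, where 2.3% of all genes rose and 2.4% fell. With the block that comparison gave 9, where 8.68% of all genes rose and 13% fell. Acod1 was at 28.2 to 58.7 CPM with glutamine and 107 to 156 CPM without (log2 1.53, SE 0.23, adjusted p = 0.00773), Ucp2 fell by 0.72 (adjusted p = 0.0179), and Tfb1m, a mitochondrial ribosomal RNA methyltransferase, rose by 0.57 (adjusted p = 0.0434). No gene of complex II, the assembly lists, cytochrome c and other proteins outside the prefixes, or the tricarboxylic acid cycle was called. The closest was Timmdc1, a complex I assembly factor, at 0.30 (adjusted p = 0.0864, and 0.0105 with the block), and Idh2 was at -0.14 (adjusted p = 0.455). AKG gave no call in the pathway lists in either comparison. With the block it gave 7 against cells without glutamine, where 8.32% of all genes rose and 7.03% fell. Against cells with glutamine the block gave 2, where 1.63% of all genes rose and 5.38% fell. The smallest adjusted p was that of Atpaf1, an assembly factor of the ATP synthase, at -0.45 against cells without glutamine (adjusted p = 0.0639, and 0.00786 with the block).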

How the data were processed

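Total RNA of mouse bone marrow-derived macrophages was sequenced with a stranded TruSeq kit, per the labels. The authors deposited raw counts per gene in 2 tables, made with STAR and HTSeq on mm10 per the submitters' processing notes. No version and no strand setting of the counting was stated. In GENCODE vM21, 5 members overlap an exon of another gene in the same direction and 28 in the opposite one, and 31 share at least 10% of their 50-base sequences with other genes, so their counts are less certain.

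For each table a single edgeR 4.0.16 model (R 4.3.3, limma 3.58.1) held every group of that table. It used filterByExpr, TMM and the quasi-likelihood F test, with robust weighting, and Benjamini-Hochberg adjustment over the 12492 (tolerant) or 12506 (stimulation) genes tested. A gene was called below an adjusted p of 0.05. Biological variation between libraries, as a coefficient, was 0.271 (9 residual degrees of freedom) and 0.174 (3). Replicates were no copies of one another (chi-square 7.73 to 174 per degree of freedom over 21 pairs). Scripts were tested on simulated data. Figures used Python 3.11.15 and matplotlib 3.10.9.

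Deviations from group means were correlated to see whether replicate numbers pair the samples. All 12 same-number pairs of the tolerant set were positive (0.501 to 0.823), so the block is given beside the member results it changes in that set. Different numbers within replicates 1 and 2 or within 3 and 4 correlated as much (0.465 to 0.836), and the labels do not say what a number marks. For the stimulation set the block is given mainly as counts of called members, 24 against 26 with LPS and 12 against 17 in IL-4 against LPS.

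The members and the lists of pathway, cell type and cell cycle genes were chosen with earlier results of these data known. Named in each comparison were the 12 called members with the largest change (all where fewer, or the 5 with the smallest p where none was called), a set of anchor subunits, and the 3 genes with the smallest p in each pathway list. Other genes named beside these were chosen after their values were seen. Of the mast cell markers 1 was tested and it was not called. Promoters came from RefSeq (GRCm38.p6). One member counts in every total but its own values are not reported here.

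Tried as alternatives were RLE scaling, dropping the low-count filter or setting it at 1 CPM, DESeq2 1.42.0, limma-voom, fitting only the groups compared, the replicate block, each library left out and other definitions of a member. In the tolerant set replicates 1 and 2 against 3 and 4 also entered as a factor or were fitted alone. Library totals without TMM, a crossed block and a fit without robust weighting were added after seeing the data.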

Additional observations from a re-analysis of the deposited data

Results flagged for a closer look

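Of 87 groups of 4 tolerant libraries checked for a library far from the other 3, 5 stood out, and chance gives about 1 in 20. With glutamine, replicate 1 held Cox6c at 47.8 CPM, and the others were at 52.4 to 53.2 CPM. Without glutamine, replicate 3 held Atp5a1 at 476 CPM (others 400 to 409). The same replicate 3 had 0.196% of all counts in complex V, where the others had 0.176 to 0.178%. With AKG, replicate 3 had 0.0431% of counts in complex III (others 0.0469 to 0.0470%), and replicate 4 had 0.178% in complex V (others 0.165 to 0.166%). All 5 lay in the tolerant set, the only one with groups of 4.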

How the results depend on the processing

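On library totals without TMM, 45 of the 83 members changed sign with LPS and 43 in IL-4 against LPS. Among the genes named by rule, log2 values changed sign with LPS for Cox6a1 (-0.023), Cox8a (-0.0047), Atp5a1 (-0.071), Ndufs1 (-0.28), Uqcrc1 (-0.16), Uqcrfs1 (-0.21), Cox4i1 (-0.29), Ndufa4 (-0.22) and Atp5g1 (-0.30). In IL-4 against LPS they did for Ndufa11 (0.013), Ndufaf3 (0.058), Ndufs4 (0.059), Cox7a2 (0.10), Atp5b (0.092), Ndufa4 (0.31), Atp5g1 (0.42), Ndufv1 (0.43), Uqcrc1 (0.46), Uqcrfs1 (0.46), Cox4i1 (0.25), Cox6a1 (0.23), Cox8a (0.34), Atp5a1 (0.30) and Atp5g3 (0.24), and 50 members were called in place of 17. Totals also turned Atp5g2 with IL-4 (0.0091) and Uqcrc1 in AKG against no glutamine (-0.024). With LPS 2 members were higher and 33 lower on totals, against 20 and 6. In the share of all counts, TMM sizes gave 0.410% untreated, 0.453% with IL-4 and 0.495% with LPS. Counting subunits only gave 0.489% with IL-4, 0.437% without glutamine and 0.413% with AKG. Over the named genes, 1960 values kept direction and side of the threshold under an alternative, 95 lost the call, 36 gained one and 114 changed sign. Of the 114, 13 were called in one of the 2 fits, all 13 on library totals, and 101 in neither.

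These other sign changes were of genes called in neither fit. With LPS, Ndufv1 (0.0038) and Cox7a1 (0.025) turned with RLE and with DESeq2. In IL-4 against LPS Cox7a1 turned with RLE (-0.011) and DESeq2 (-0.012), and Uqcrc1 (0.0093) and Uqcrfs1 (0.0071) without a filter. With IL-4 Cox7a1 turned with the 1 CPM filter (-0.0061) and the crossed block (-0.0021), and Atp5g2 with only the groups compared (0.030). In AKG against glutamine Ndufv1 turned without a filter (0.0067) and with only the groups compared (0.0017). In replicates 1 and 2 alone, AKG against glutamine turned for Ndufv1 (0.056), Cox4i1 (0.029), Cox7a1 (-0.19), Cox7a2 (0.0082), Cox8a (0.037) and Atp5g2 (0.092). There AKG against no glutamine turned for Cox4i1 (0.024), Atp5a1 (0.036) and Atp5g2 (0.011), and no glutamine against glutamine for Cox5a (-0.072), Cox6a1 (0.081), Atp5g1 (0.00039) and Atp5g2 (0.081). In replicates 3 and 4 alone AKG against no glutamine turned for Cox6a1 (0.027) and Atp5g1 (0.0070), and no glutamine against glutamine for Cox7a1 (0.19) and Cox8a (-0.014).

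With 1 library left out, values spanned 0 for these genes. In IL-4 against LPS they were Ndufv1 (-0.16 to 0.060), Uqcrc1 (-0.15 to 0.12), Uqcrfs1 (-0.11 to 0.065), Atp5g1 (-0.20 to 0.076) and Cox7a1 (-0.16 to 0.35). With IL-4 they were Ndufv1 (-0.27 to 0.071), Cox4i1 (-0.16 to 0.11), Atp5g2 (-0.14 to 0.20), Cox7a1 (-0.16 to 0.26) and Atp5g1 (-0.058 to 0.34). With LPS they were Ndufv1 (-0.22 to 0.14), Cox7a1 (-0.35 to 0.20) and Atp5g2 (-0.25 to 0.095). In AKG against glutamine they were Ndufv1 (-0.038 to 0.045), Cox8a (-0.14 to 0.072), Cox7a1 (-0.26 to 0.39), Cox6a2 (-0.031 to 0.26), Uqcrc1 (-0.075 to 0.028), Uqcrfs1 (-0.15 to 0.018) and Cox4i1 (-0.059 to 0.051). In AKG against no glutamine they were Atp5g2 (-0.13 to 0.066), Cox7a2l (-0.14 to 0.013), Cox8a (-0.21 to 0.032), Atp5a1 (-0.051 to 0.037) and Uqcrc1 (-0.042 to 0.066). In no glutamine against glutamine they were Cox6a1 (-0.069 to 0.049), Cox5a (-0.14 to 0.16), Cox8a (-0.064 to 0.19), Cox4i1 (-0.0098 to 0.11), Uqcrc1 (-0.089 to 0.016) and Atp5g2 (-0.18 to 0.029).

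Counts of called members moved as follows. DESeq2 called 3 without against with glutamine, 3 with IL-4 and 32 with LPS. Without against with glutamine (2), totals above 1000 gave 1, no filter 1, limma-voom 1, only the groups compared 0, replicates 1 and 2 against 3 and 4 as a factor 5, replicates 1 and 2 alone 4, replicates 3 and 4 alone 1, and leaving out 1 library 0 to 1. AKG against no glutamine (0) gave 1 with DESeq2, 1 with the replicate block, 2 with that factor and 7 in replicates 1 and 2 alone. AKG against glutamine (0) gave 1 in replicates 1 and 2 alone, and both AKG comparisons stayed at 0 when a library was left out. IL-4 against untreated (2) gave 1 with subunits only, 1 with totals above 1000, 1 with the replicate block, 1 with only the groups compared, and 0 to 8 with a library left out. LPS against untreated (26) gave 14 with only the groups compared and 8 to 44 with a library left out (fewest without the first LPS library, most without the first untreated one), and IL-4 against LPS (17) gave 5 to 7. A lone library left in a group is then assumed to vary like the other groups.

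In the stimulation set the replicate numbers did not pair (correlations 0.501, -0.662 and -0.366). The replicate block called 24 members with LPS, 23 of them shared with the 26, and 12 in IL-4 against LPS. A crossed pairing of the numbers called 9, 42 and 26 in IL-4, LPS and IL-4 against LPS. The cause of these shifts was not tested.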
